A study of Mus musculus with 4 samples.

Results

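Respiratory complex I passes electrons from NADH to ubiquinone and pumps protons across the inner mitochondrial membrane. The transcripts described here are the 44 gene symbols beginning with Nduf among the 12021 symbols of a read count table from mouse natural killer T (NKT) cells. By their known roles they comprise 36 nuclear-encoded subunits of complex I, 7 assembly factors (symbols beginning Ndufaf), and Ndufa4, which carries an Nduf name but is known as a subunit of complex IV. NKT cells are T lymphocytes whose receptor recognises lipids presented by CD1d. All libraries came from liver NKT cells of C57BL/6 mice aged 10 to 12 weeks that carried a Va14 receptor transgene and 1 Cxcr6 allele with GFP, sorted on high GFP. In the tetramer group (2 libraries) the receptor had been engaged with plate-bound tetramers of mouse CD1d carrying the lipid PBS57, and in the resting group (2 libraries) the cells were kept unstimulated. The receptor transgene is shared by both groups, so neither represents NKT cells with an unaltered receptor. The labels name the liver, the protocols also mention spleens and islets, and neither the time in culture nor the number of mice behind a library is given in the sources used here.

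Complex I has a matrix arm, which binds NADH and carries the electrons through flavin and iron-sulphur clusters, and a membrane arm, which moves the protons. A small set of conserved core subunits does the catalysis, the nuclear-encoded ones all lying in the matrix arm, and many accessory subunits surround them. Assembly factors join parts of the complex and modify them but are absent from the finished enzyme. The core subunits of the membrane arm are encoded by mitochondrial DNA, and the table lists 0 symbols beginning with mt-, so they are not analysed here.

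Depth was 5495521 and 5398551 counts in tetramer libraries 4 and 5, and 4168438 and 4433048 counts in resting libraries 4 and 5 (numbers as in the column names). Levels are CPM, counts relative to the TMM-scaled library total, and because they are not divided by transcript length they are compared between libraries and not between genes. Ifng, the interferon gamma gene of the study's title, had 1488 and 762 CPM in tetramer libraries 4 and 5 and 14.7 and 21.2 CPM in resting libraries 4 and 5. All 10 NKT and T cell markers were listed, with summed levels of 3126 to 3949 CPM in tetramer and 3638 to 3856 CPM in resting libraries. Single markers differed in direction within that sum: Klrb1c had 2.86 and 13.6 CPM in tetramer libraries and 114 and 174 CPM in resting libraries, and Cxcr6, whose GFP allele was used for the sort, had 414 and 718 CPM in tetramer libraries and 1617 and 1102 CPM in resting libraries. Cd3d had 653 and 737 CPM in tetramer libraries and 295 and 466 CPM in resting libraries. Of the markers of other cell types, the 3 islet genes Ins1, Ins2 and Gcg summed to 218 to 406 CPM in tetramer and 247 to 921 CPM in resting libraries, and the 2 haemoglobin genes to 18.4 to 44.7 CPM in tetramer and 81.6 to 229 CPM in resting libraries. The listed markers of B cells (4 of 4), macrophages (3 of 6), neutrophils (2 of 4), hepatocytes (2 of 4) and endothelium (1 of 3) summed to at most 16.6 CPM per type in a tetramer library and 75 CPM in a resting library. The part of these other cell types in the results below was not tested. No source says whether different mice gave the 2 libraries of each group, and the p-values thus cover library-to-library spread that may be technical.

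The promoters of 5 members are shown as examples. Each holds 1 or 2 of the 3 short motifs marked below, and some members not shown hold them too. All 5 hold the first motif given below. Ndufs6, Ndufa9, Ndufb6 and Ndufaf4 were called higher and Ndufa6 was not called, so they do not represent all members. Each is 300 bases of RefSeq sequence on GRCm38.p6, from 250 bases before the annotated transcription start to 50 after it, given 5′ to 3′ on the gene's strand. Capitals mark matches on either strand to TGCGCA (one side of the motif of NRF1, a transcription factor of respiratory genes), to CCGGAAG (an ETS family motif) and to AAGATGG (a YY1 motif core).
Ndufs6, chr13:73328433-73328732, minus strand: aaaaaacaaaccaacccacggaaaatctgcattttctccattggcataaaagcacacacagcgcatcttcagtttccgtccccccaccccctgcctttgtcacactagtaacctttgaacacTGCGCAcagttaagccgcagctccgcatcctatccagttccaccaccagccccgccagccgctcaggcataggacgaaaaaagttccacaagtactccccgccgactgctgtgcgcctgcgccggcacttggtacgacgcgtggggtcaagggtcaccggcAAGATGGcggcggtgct
Ndufa9, chr6:126849095-126849394, minus strand: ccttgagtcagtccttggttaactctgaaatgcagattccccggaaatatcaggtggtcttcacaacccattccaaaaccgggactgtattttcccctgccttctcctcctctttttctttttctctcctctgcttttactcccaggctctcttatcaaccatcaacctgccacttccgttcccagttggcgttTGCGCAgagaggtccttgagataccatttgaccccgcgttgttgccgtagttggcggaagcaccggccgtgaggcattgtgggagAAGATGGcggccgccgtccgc
Ndufb6, chr4:40279372-40279671, minus strand: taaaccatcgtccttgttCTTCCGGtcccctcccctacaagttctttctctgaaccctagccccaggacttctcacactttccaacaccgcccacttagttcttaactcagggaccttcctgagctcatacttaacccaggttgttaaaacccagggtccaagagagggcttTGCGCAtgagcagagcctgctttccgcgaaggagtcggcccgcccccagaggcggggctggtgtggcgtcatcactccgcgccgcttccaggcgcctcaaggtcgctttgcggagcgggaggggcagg
Ndufaf4, chr4:24897833-24898132, plus strand: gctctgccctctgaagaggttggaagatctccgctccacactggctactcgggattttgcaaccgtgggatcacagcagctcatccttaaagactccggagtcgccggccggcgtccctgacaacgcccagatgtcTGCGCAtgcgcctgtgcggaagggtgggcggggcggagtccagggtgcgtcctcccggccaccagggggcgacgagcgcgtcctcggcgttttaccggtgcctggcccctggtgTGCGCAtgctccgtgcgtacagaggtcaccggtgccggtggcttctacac
Ndufa6, chr15:82354242-82354541, minus strand: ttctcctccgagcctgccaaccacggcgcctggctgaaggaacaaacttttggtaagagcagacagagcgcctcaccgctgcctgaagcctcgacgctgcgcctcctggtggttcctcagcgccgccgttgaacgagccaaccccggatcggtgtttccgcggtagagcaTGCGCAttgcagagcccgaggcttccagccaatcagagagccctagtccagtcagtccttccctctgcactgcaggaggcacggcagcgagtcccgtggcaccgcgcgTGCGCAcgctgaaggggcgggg
RefSeq promoters were matched for 32 of the 36 subunit genes (34 promoters) and 6 of the 7 Ndufaf genes (6 promoters). TGCGCA was found in 11 subunit promoters (32.4%), against 13.9% of the 10872 promoters of all tested genes, and in 1 Ndufaf promoter, that of Ndufaf4. Among subunits it was in 7 of 15 promoters of genes called higher below and in 4 of 19 of the others. These are counts of promoters and not of genes. The overlapping promoters of Ndufa5, a gene called higher, hold the same TGCGCA, which is counted in each. AAGATGG was found in 7 of 34 subunit promoters (20.6%, against 7.35% for tested genes), those of Ndufa3, Ndufa9, Ndufb8, Ndufc1, Ndufs4, Ndufs6 and Ndufs7. All 7 matches lay on the gene's strand and began 22 to 38 bases after the start. The CCGGAAG motif was found in 11.8% of subunit promoters and 18.2% of those of tested genes, the Myc E-box CACGTG in 8.82% and 9.96%, and the TATA motif TATAAA in 14.7% and 7.32%. The overlapping promoters of Ndufa7 hold the same CACGTG and the same TATA match, which are counted in each. No overlap between matches of different motifs occurred in the 5 promoters shown. Median GC content was 59.2% in subunit promoters and 60.3% in those of tested genes. These matches are letters in a window and were not tested as binding sites.

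Transcripts of complex I subunits were higher in tetramer-stimulated than in resting NKT cells for 14 of 36 subunits, among them Ndufa12, Ndufab1, Ndufb7 and Ndufc1, and lower for 0. The called rises lay between 2.15-fold and 4.59-fold, and in simulated counts the test missed most changes of 2-fold. By comparison 14.3% of the 11312 genes tested were called higher and 12.1% lower (Benjamini-Hochberg adjusted p below 0.05 in the quasi-likelihood test of edgeR), while subunits were called higher in 38.9% of cases. A log2 fold change (tetramer over resting) above 0 was seen in 34 of 36 subunits, against 48.0% of all tested genes. Its median was 0.76 for subunits and -0.06 for all tested genes. With unadjusted library totals these medians were 0.46 and -0.35, 10 subunits were called higher and 1 lower, and all genes split into 1193 higher and 2250 lower against 1620 higher and 1366 lower with TMM. Subunit transcripts together made up 0.735% and 0.764% of counts in tetramer libraries 4 and 5, and 0.561% and 0.570% in resting libraries 4 and 5. These shares lean on Ndufa2, which alone gave 5678 of 40392 subunit counts in tetramer library 4 and 10552 of 41234 in tetramer library 5. In resting libraries 4 and 5 it gave 5191 of 23390 and 5193 of 25256. Fewer cells of a type and less RNA per cell cannot be told apart in such bulk samples.

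Both tetramer libraries lay above both resting libraries for 28 of the 36 subunits, against 31.6% of all tested genes, and below them for 1, Ndufa6, against 33.7%. The groups overlapped for Ndufa11, Ndufb10, Ndufb11, Ndufb3, Ndufs1, Ndufs5 and Ndufv3. Which subunits were called depended on single libraries, as given gene by gene below. With single libraries left out, the median log2 fold change of the 36 subunits ranged from 0.66 to 1.09. With 1 library left in a group, that library is assumed to vary as the other group does.

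**Figure D1:**
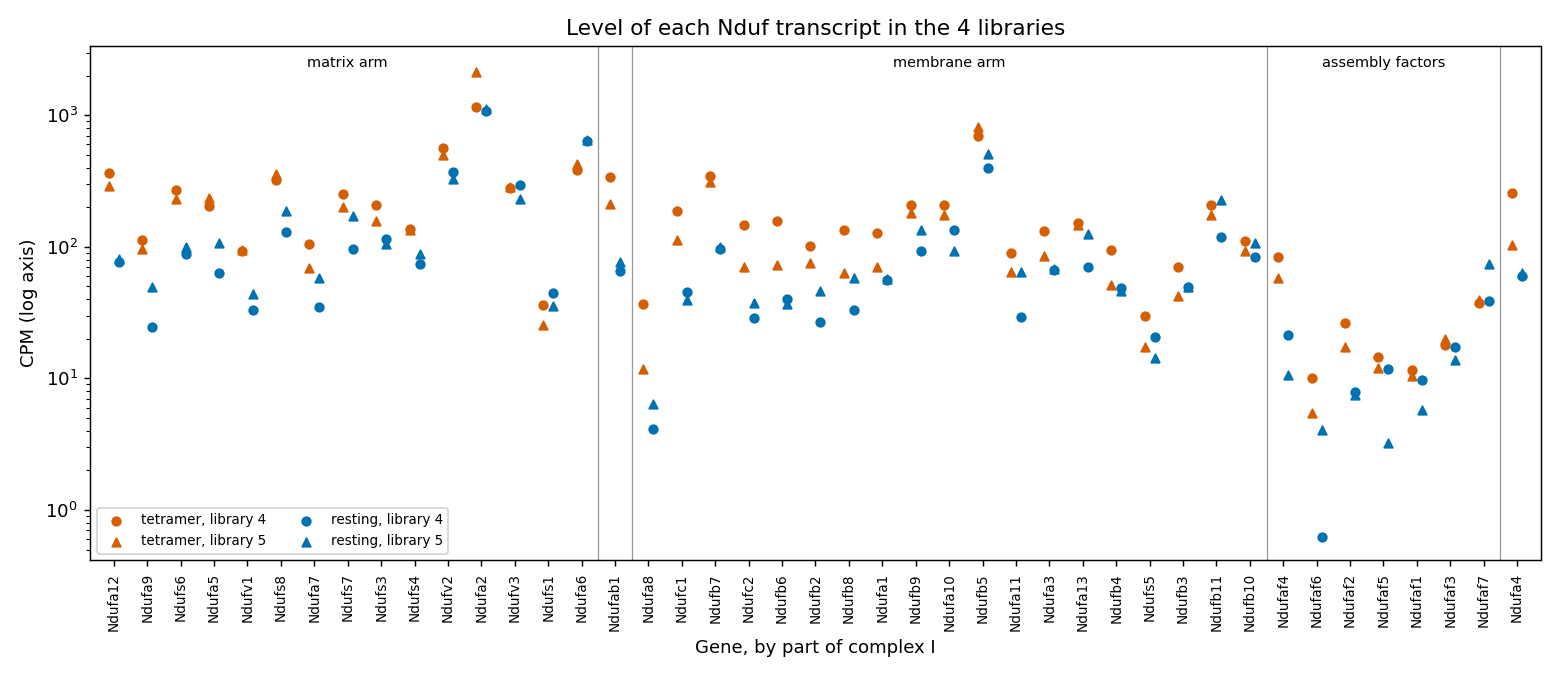
CPM of 43 Nduf transcripts on a log axis in tetramer library 4 and 5 (orange circle and triangle) and resting library 4 and 5 (blue circle and triangle), grouped by arm, with Ndufab1 between the arms and Ndufa4 at the far right. In most subunits both orange points lie above both blue points, while Ndufa6 shows the opposite order.

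Among the nuclear-encoded core subunits, which carry the flavin and iron-sulphur clusters or form the quinone site, Ndufv1 and Ndufs8 rose. Ndufv1, which binds NADH and its flavin, had 92.9 and 94.9 CPM in tetramer libraries 4 and 5, against 33.4 and 43.6 CPM in resting libraries 4 and 5 (log2 fold change 1.29 ± 0.39 SE, edgeR adjusted p = 0.0157). Its libraries separated cleanly, the tetramer values almost coinciding. Ndufs8, an iron-sulphur subunit next to the quinone site, had 321 and 361 CPM in tetramer libraries and 129 and 188 CPM in resting libraries (1.10 ± 0.37, edgeR adjusted p = 0.0272). Both calls were lost when tetramer library 4, tetramer library 5 or resting library 4 was left out, and with library totals or a test against a fold of 1.5. Leaving out single libraries gave log2 fold changes of 1.12 to 1.52 for Ndufv1 and 0.87 to 1.42 for Ndufs8. Ndufs7, which holds the last iron-sulphur cluster before quinone, had 254 and 200 CPM in tetramer libraries and 95.9 and 172 CPM in resting libraries, and did not pass (0.76 ± 0.38, edgeR adjusted p = 0.136), though it was called without resting library 5. Ndufs3 and Ndufv2 had log2 fold changes of 0.74 and 0.60, with non-overlapping groups and no call. Ndufs1, the largest subunit and carrier of several iron-sulphur clusters, was the exception among core subunits. It had 36.2 and 25.3 CPM in tetramer libraries and 44.5 and 35.5 CPM in resting libraries (-0.38 ± 0.43, edgeR adjusted p = 0.540), and its groups overlapped.

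Among the 9 accessory subunits of the matrix arm 4 rose, Ndufa12, Ndufa9, Ndufs6 and Ndufa5, against 14.3% of all tested genes called higher. Ndufa12, which sits on the NADH-binding end, had 366 and 288 CPM in tetramer libraries 4 and 5, against 76.9 and 80.8 CPM in resting libraries 4 and 5. The 4.14-fold difference (log2 fold change 2.05 ± 0.37, edgeR adjusted p = 0.000244) far exceeded the spread within either pair, and its call held in each fit with 1 library left out (1.88 to 2.22). A processed pseudogene of Ndufa12 matches its transcript at 99.5% identity over 402 of its 1110 nt, and how reads in that stretch were assigned was not tested. Ndufs6, a zinc-binding subunit added late in assembly and 1 of those shown above with an AAGATGG match, had 273 and 233 CPM in tetramer libraries and 88.3 and 99.8 CPM in resting libraries (1.43 ± 0.37, edgeR adjusted p = 0.00535). Ndufa9, at the junction of the arms, had 113 and 96.3 CPM in tetramer libraries and 24.4 and 49.6 CPM in resting libraries (1.5 ± 0.41, edgeR adjusted p = 0.00803). In both genes every tetramer value exceeded every resting value. Ndufa5, an accessory subunit of the quinone-reducing part, averaged 219 ± 21.7 CPM in tetramer libraries and 85.7 ± 31.5 CPM in resting libraries (SD, n = 2 each, edgeR adjusted p = 0.00971). The calls of Ndufs6 and Ndufa9 were lost without tetramer library 4, and those of Ndufa9 and Ndufa5 without resting library 4, that of Ndufa5 also without tetramer library 5.

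Accessory subunits of the matrix arm that did not pass included Ndufa7, Ndufs4, Ndufa2 and Ndufv3. Ndufs4, whose loss in mice gives a widely used model of complex I deficiency, had 137 and 134 CPM in tetramer libraries and 74.2 and 88.3 CPM in resting libraries (0.74 ± 0.36, edgeR adjusted p = 0.133). Ndufa2 had 1162 and 2134 CPM in tetramer libraries 4 and 5 and 1075 and 1110 CPM in resting libraries 4 and 5, so that tetramer library 5 alone stood high. Its log2 fold change of 0.59 was 0.10 without tetramer library 5. Ndufa7 had a log2 fold change of 0.91 ± 0.40 and was called without resting library 5, and Ndufv3 one of 0.10 ± 0.36, with overlapping groups. Ndufa6 ran the other way: it had 385 and 425 CPM in tetramer libraries and 638 and 650 CPM in resting libraries. Ndufa6 is a LYR protein that anchors the acyl carrier protein Ndufab1 to the complex. Its difference (-0.67 ± 0.36, edgeR adjusted p = 0.173) did not pass with TMM scaling and was called lower with library totals (-0.96), and it stayed between -0.74 and -0.58 with single libraries left out. Its promoter, shown above, holds TGCGCA in 2 places.

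Ndufab1, the mitochondrial acyl carrier protein, serves mitochondrial fatty acid synthesis as well and occurs in both arms of complex I. It had 337 and 211 CPM in tetramer libraries 4 and 5, against 65.7 and 77.1 CPM in resting libraries 4 and 5, a 3.83-fold rise (1.94 ± 0.38, edgeR adjusted p = 0.000551). Tetramer library 4 was the higher of its pair, and the rise was called with any single library left out (1.58 to 2.25). The annotation holds 2 processed pseudogenes of Ndufab1 that match it at 99.4% to 99.8% identity, over 469 and 468 of its 3479 nt. Its LYR partner in the membrane arm, Ndufb9, had 207 and 180 CPM in tetramer libraries and 93.2 and 135 CPM in resting libraries (0.76 ± 0.37, edgeR adjusted p = 0.124). Of the acyl carrier protein and its partners Ndufa6 and Ndufb9, the carrier alone passed the threshold, and whether the changes differ from each other was not tested.

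Of the 19 membrane-arm subunits 7 rose, against 14.3% of all tested genes called higher: Ndufa8, Ndufc1, Ndufb7, Ndufc2, Ndufb6, Ndufb2 and Ndufb8. Ndufb7, a subunit on the intermembrane-space face, had 346 and 313 CPM in tetramer libraries 4 and 5, against 96.7 and 99.2 CPM in resting libraries 4 and 5 (3.36-fold, 1.75 ± 0.37, edgeR adjusted p = 0.00102). Its pairs were tight and its value barely moved with single libraries left out (1.69 to 1.83), each time with a call. Ndufc1 had 187 and 112 CPM in tetramer libraries and 45.6 and 39.3 CPM in resting libraries (1.82 ± 0.39, edgeR adjusted p = 0.00122). Its neighbour in the complex, Ndufc2, had 147 and 70.6 CPM in tetramer libraries and 29.0 and 37.4 CPM in resting libraries (1.71 ± 0.42, edgeR adjusted p = 0.00355). Both belong to the proximal part of the membrane arm. Ndufb6 had 157 and 73.0 CPM in tetramer libraries and 40.2 and 37.0 CPM in resting libraries (1.57 ± 0.41, edgeR adjusted p = 0.00590), with the caution that 39.0% of its exon bases are shared with Smim27 on the opposite strand. Ndufa8, another intermembrane-space subunit, rested on few reads, with 180 and 58 counts in tetramer libraries 4 and 5 and 20 and 30 counts in resting libraries 4 and 5. Its 4.59-fold difference (2.20 ± 0.59, edgeR adjusted p = 0.00720) ranged from 1.17 to 2.81 on the log2 scale with single libraries left out. In all 4 of Ndufc1, Ndufc2, Ndufb6 and Ndufa8, tetramer library 4 was the higher of its pair and the call was lost without it.

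Ndufb2 and Ndufb8, accessory subunits of the distal membrane arm, passed more narrowly. Ndufb2 had 102 and 75.5 CPM in tetramer libraries and 26.9 and 45.9 CPM in resting libraries (1.29 ± 0.41, edgeR adjusted p = 0.0199). Ndufb8 had 135 and 62.9 CPM in tetramer libraries and 33.1 and 57.9 CPM in resting libraries (1.12 ± 0.42, edgeR adjusted p = 0.0477), so that tetramer library 5 was close to resting library 5. Both calls were lost without tetramer library 4 or resting library 4, with library totals and in the test against a fold of 1.5, and that of Ndufb8 also with DESeq2, limma-voom, upper-quartile scaling, no expression filter and a replicate block. The log2 fold change of Ndufb8 was 0.48 without tetramer library 4.

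The other 12 membrane-arm subunits had log2 fold changes between 0.08 and 0.81 and none passed. Ndufa1, an X-linked subunit required for assembly, had 127 and 70.8 CPM in tetramer libraries and 56.4 and 56.8 CPM in resting libraries (0.81 ± 0.39, edgeR adjusted p = 0.126). Ndufa13, also known as GRIM-19 and studied as a cell death regulator, had 151 and 147 CPM in tetramer libraries and 70.0 and 125 CPM in resting libraries (0.61 ± 0.38, edgeR adjusted p = 0.236). In both, the groups did not overlap. Ndufa11, a subunit at the foot of the membrane arm, had a log2 fold change of 0.71 ± 0.42 and was called without resting library 5. Ndufb5 and Ndufa10 lay at 0.72 and 0.75, Ndufa3 and Ndufb4 at 0.69 and 0.61, and Ndufs5 at 0.43. The least changed were Ndufb3, Ndufb11 and Ndufb10, at 0.18, 0.15 and 0.08, where the groups overlapped. For these 3 and for Ndufv3 the sign turned negative with library totals. By arm, the median log2 fold change was 0.75 for the matrix arm, with 6 of 16 called, and 0.75 for the membrane arm, with 7 of 19 called. Of all tested genes 14.3% were called higher, and their median was -0.06.

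**Figure D2:**
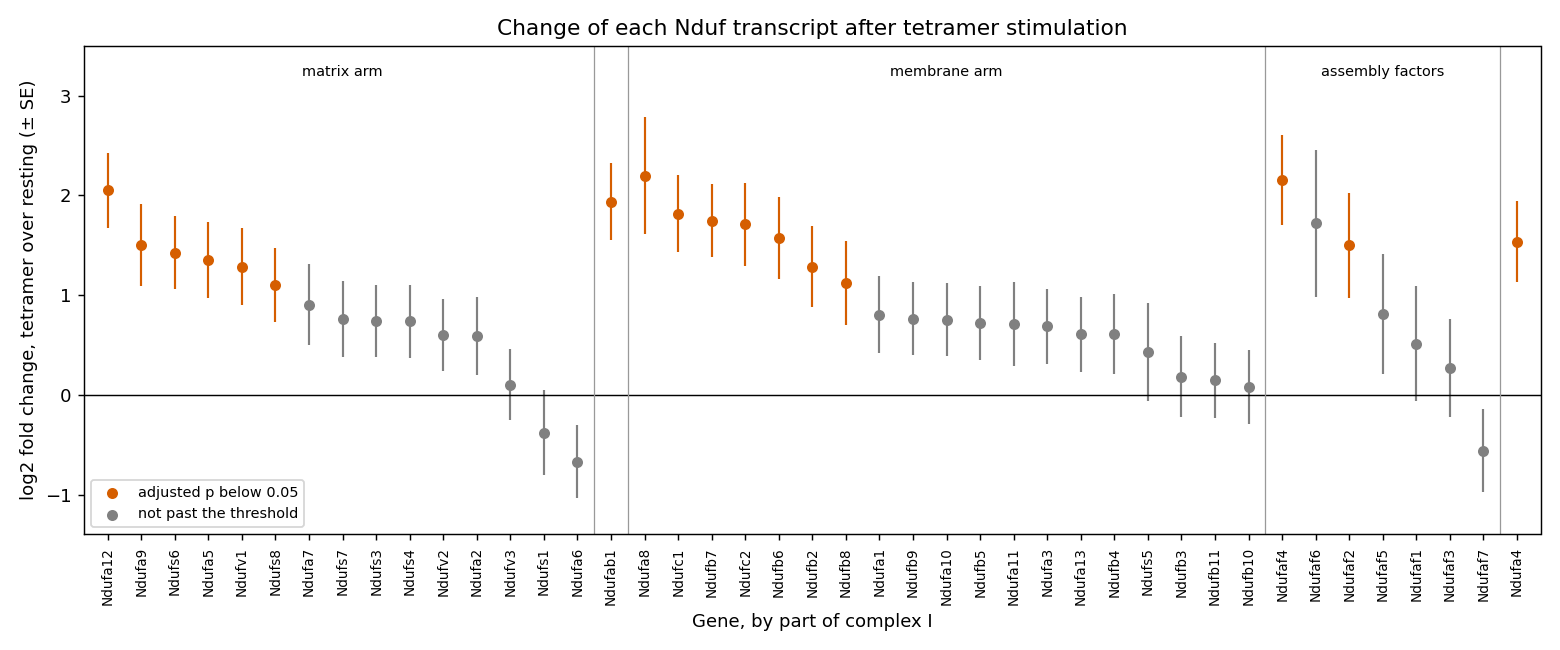
Log2 fold change (tetramer over resting) with its standard error for 43 Nduf transcripts, in orange where the adjusted p was below 0.05 and in grey elsewhere, ordered by size within each arm, with Ndufab1 between the arms and Ndufa4 at the far right. Values run from -0.67 (Ndufa6) to 2.20 (Ndufa8); the membrane arm starts at 0.08 (Ndufb10).

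Of the 7 Ndufaf assembly factors 2 rose, Ndufaf4 and Ndufaf2, and 0 fell, against the 14.3% of genes called higher overall. Ndufaf4 acts with Ndufaf3 early in assembly of the matrix arm. It had 84.3 and 58.3 CPM in tetramer libraries 4 and 5, against 21.3 and 10.7 CPM in resting libraries 4 and 5 (4.44-fold, 2.15 ± 0.45, edgeR adjusted p = 0.000991), and was called with any single library left out (1.76 to 2.75). Its partner Ndufaf3 had 17.8 and 20.0 CPM in tetramer libraries and 17.4 and 13.9 CPM in resting libraries (0.27 ± 0.49, edgeR adjusted p = 0.716), a separation of the groups by less than 1 CPM. Whether the partners differ in their change was not tested. Ndufaf2 is the paralogue of Ndufa12 and precedes it in the assembling enzyme. It had 26.2 and 17.4 CPM in tetramer libraries and 7.87 and 7.48 CPM in resting libraries (1.5 ± 0.53, edgeR adjusted p = 0.0347). That call did not survive leaving out tetramer library 4, tetramer library 5 or resting library 5, nor library totals or a test against a fold of 1.5. An RNA gene on the opposite strand, B230220B15Rik, shares 65.6% of the exon bases of Ndufaf2, and no source says that the counting used strand.

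The other Ndufaf transcripts did not pass and most were thinly covered. Ndufaf6, needed in assembly of the membrane-bound core, had 49 and 27 counts in tetramer libraries 4 and 5 and 3 and 19 counts in resting libraries 4 and 5. Its log2 fold change of 1.72 ± 0.74 (edgeR adjusted p = 0.0824) ranged from 0.94 to 3.61 with single libraries left out, and it was called by limma-voom, with a replicate block and without resting library 5. Ndufaf5, which hydroxylates Ndufs7, had 71 and 59 counts in tetramer libraries and 57 and 15 counts in resting libraries (0.81 ± 0.60). It was called without resting library 4. Ndufaf1, part of the assembly complex that builds the membrane arm, had a log2 fold change of 0.51 ± 0.57. Ndufaf7, a methyltransferase of the assembly process, had 37.6 and 39.2 CPM in tetramer libraries and 38.9 and 74.4 CPM in resting libraries, so resting library 5 alone stood high (-0.56 ± 0.42, edgeR adjusted p = 0.337). The median over the 7 factors was 0.81, close to the 0.76 of the subunits, but it was 0.21 without resting library 5. With counts as low as 3 per library, the standard errors of the factors (0.42 to 0.74) reached above those of the subunits that did not pass (0.36 to 0.49). The difference between subunits and Ndufaf factors was not tested.

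Factors outside the Nduf naming behaved variously. RefSeq gives 1810043H04Rik as an older symbol of Ndufaf8, a partner of Ndufaf5, and under that symbol it had 21.7 and 19.6 CPM in tetramer libraries and 5.80 and 7.05 CPM in resting libraries (1.68 ± 0.53, edgeR adjusted p = 0.0208). Of 12 further complex I assembly factors 10 were tested, and 1 rose and 1 fell, near the 14.3% higher and 12.1% lower among all tested genes. Dmac1, listed under its older symbol Tmem261 and needed for the distal membrane arm, had 69.2 and 50.8 CPM in tetramer libraries and 17.8 and 25.2 CPM in resting libraries (1.48 ± 0.43, edgeR adjusted p = 0.0123). Dmac2, listed as Atp5sl, had 30.1 and 27.7 CPM in tetramer libraries and 61.9 and 74.2 CPM in resting libraries (-1.23 ± 0.41, edgeR adjusted p = 0.0252). The call of Dmac1 was lost without tetramer library 4 or resting library 4. Leaving out tetramer library 4, tetramer library 5 or resting library 5, or testing against a fold of 1.5, ended the call of Dmac2. That of Ndufaf8 was lost without tetramer library 4, without tetramer library 5 and in the fold test. The remaining 8 did not pass, with log2 fold changes from -0.76 for Tmem126b, a partner of Ndufaf1, to 0.94 for the flavoprotein Foxred1, which was called without resting library 4. The median of these 10 was 0.29.

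Ndufa4, counted with the 44 by name but not as a subunit of complex I, had 255 and 103 CPM in tetramer libraries 4 and 5, against 59.9 and 63.3 CPM in resting libraries 4 and 5 (1.54 ± 0.41, edgeR adjusted p = 0.00671). The resting pair was tight and the tetramer pair wide, and the call was lost without tetramer library 4 (0.76). With it, 17 of the 44 symbols were called higher, against 14.3% of all tested genes.

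The median change of complex I subunits lay below those of complex III, complex IV, ATP synthase and the mitochondrial ribosome. It was 1.40 for 9 complex III subunits (6 higher, 0 lower), 1.31 for 11 complex IV subunits with Ndufa4 (7 higher, 0 lower) and 1.19 for 15 ATP synthase subunits (11 higher, 0 lower). For 7 complex II subunits and assembly factors it was 0.74 (1 higher, 0 lower), near the 0.76 of complex I. The 77 mitochondrial ribosomal proteins had a median of 1.01 (37 higher, 0 lower). Among these, Uqcr11 of complex III had 265 and 263 CPM in tetramer libraries and 86.8 and 75.4 CPM in resting libraries, and Atp5g1, which encodes the rotating c subunit of ATP synthase, had 455 and 255 CPM in tetramer libraries and 40.2 and 113 CPM in resting libraries. Over all tested genes the median was -0.06, with 14.3% called higher and 12.1% lower. These medians are descriptions, and the difference between complexes was not tested.

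**Figure D3:**
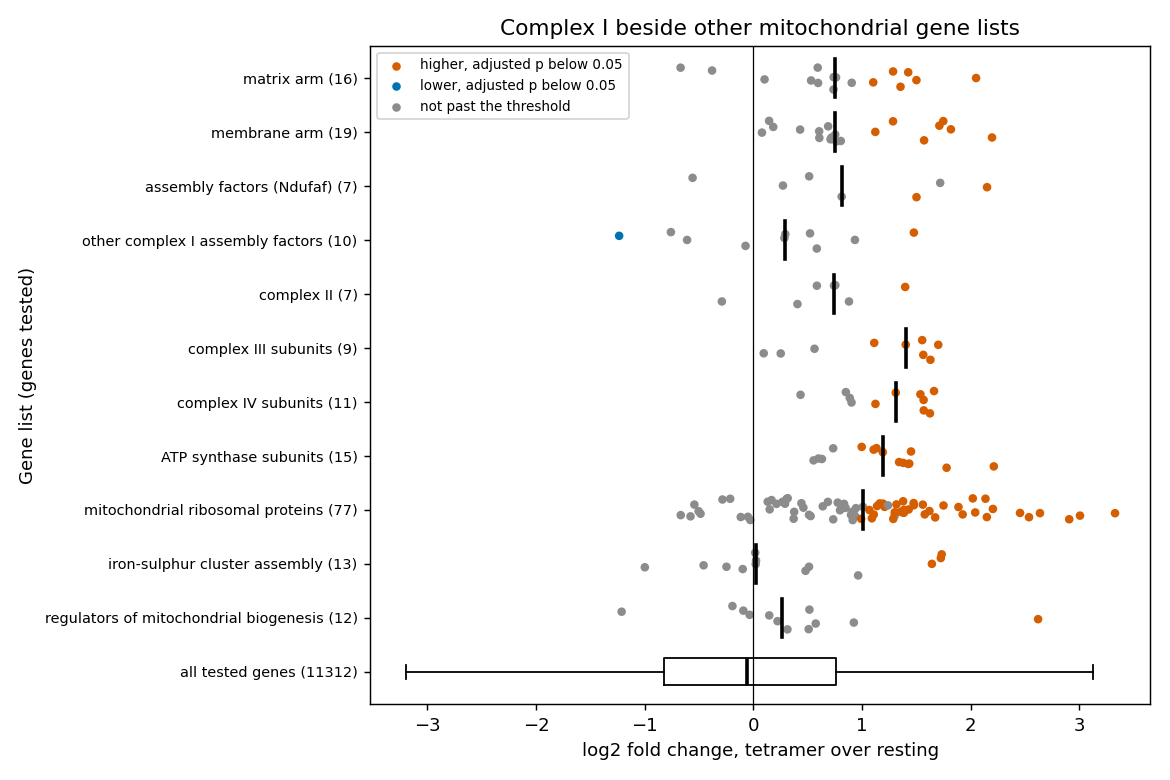
Each point is the log2 fold change (tetramer over resting) of 1 gene in complex I and related mitochondrial lists, with the number tested in parentheses, a black bar at the median, and a box (quartiles, whiskers to 1.5 times the interquartile range) for all 11312 tested genes. Complex I arms have medians of 0.75, the complex III, complex IV and ATP synthase lists medians of 1.19 to 1.40, and all genes one of -0.06.

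The spread between libraries of a group ran through many members at once. Tetramer library 4 was above tetramer library 5 in 28 of 36 subunits, by a median of 0.31 on the log2 CPM scale, and resting library 4 was above resting library 5 in 11 of 36, with a median difference of -0.20. Whether this spread is particular to complex I was not tested. Of the 17 calls among the 44 symbols, 4 held in every fit with 1 library left out, those of Ndufa12, Ndufab1, Ndufaf4 and Ndufb7. Without tetramer library 4 the other 13 shrank to 1, that of Ndufa5, and without resting library 4, 6 calls were lost, those of Ndufa5, Ndufa9, Ndufb2, Ndufb8, Ndufs8 and Ndufv1. Without tetramer library 5 the lost calls were those of Ndufa5, Ndufaf2, Ndufs8 and Ndufv1, and without resting library 5 that of Ndufaf2. Losses among all tested genes in these fits are not given here. A loss particular to complex I can thus not be told from a general one.

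**Figure D4:**
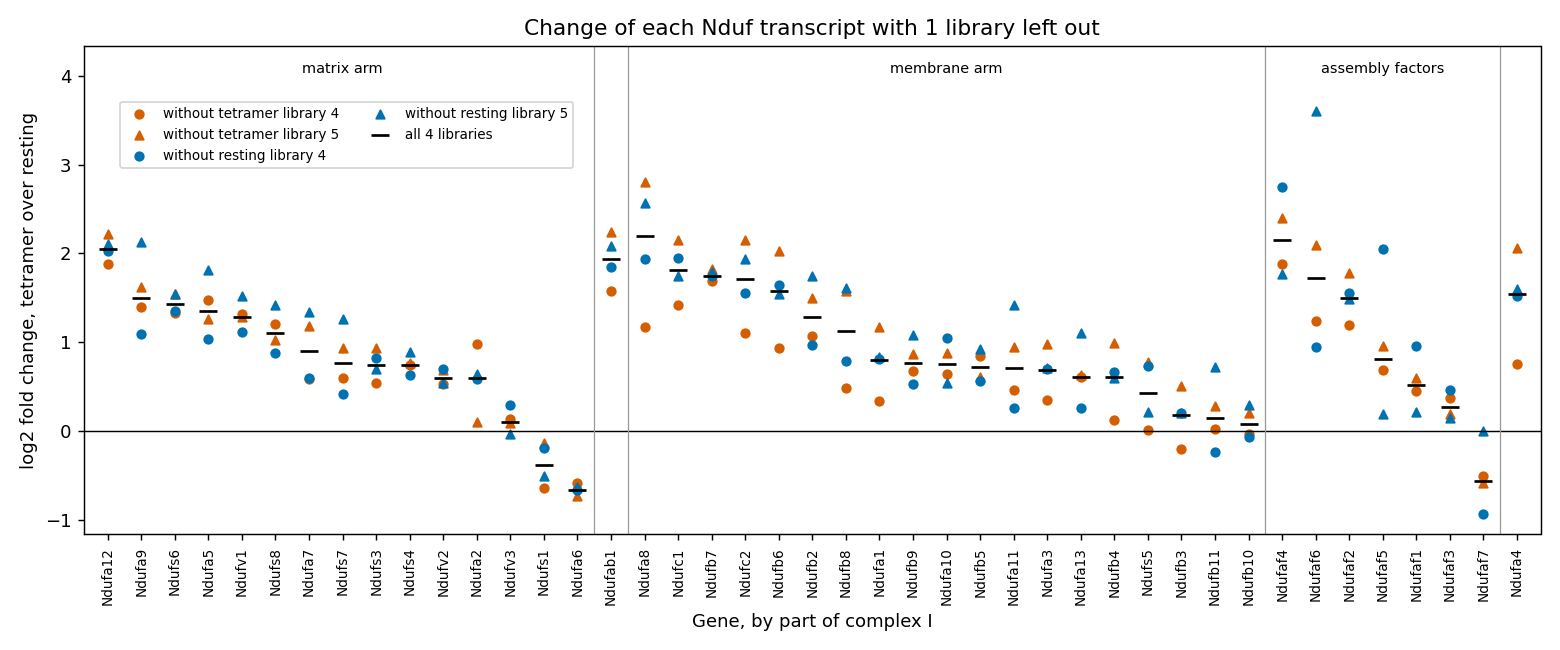
Log2 fold change (tetramer over resting) of 43 Nduf transcripts with all 4 libraries (black dash) and with 1 library left out (orange for a tetramer and blue for a resting library, circles for library 4 and triangles for library 5). The points of Ndufb8 run from 0.48 to 1.61, and the points of Ndufb7 lie together between 1.69 and 1.83.

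Near-copies and shared exons limit some of these values. In GENCODE M21, which is on another build than the mm9 named by the submitters, 8 of 36 subunit genes have a processed pseudogene with at least 95% identity over at least 200 nt, and 3 of these were called higher, Ndufa12, Ndufab1 and Ndufs6. Exon bases are shared with another gene in 16 subunit genes. Of the 16 subunit genes with neither a near-copy nor a shared exon, 7 were called higher. For comparison, 14 of all 36 subunits and 14.3% of all tested genes were called higher. The part of copies and shared exons in the changes was not tested. The subunit genes lie on 15 chromosomes and the 7 Ndufaf genes on 5.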

How the data were processed

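RNA was measured in 2 tetramer-stimulated and 2 resting NKT cell libraries. Per the labels' protocols, poly(A) RNA was enriched and its cDNA, 200 to 400 nt long, went through 23 PCR cycles. The deposited table holds raw read counts per gene symbol. Per the submitters' processing notes, Bowtie2, DESeq2 and mm9 were used. How reads were counted, with or without strand, is not stated there (not given in the sources used here). Columns name a group and a number (4 or 5) that is no title's replicate number, so they were matched to groups. The lowest count is 1, and 1 row was left out because a cell was not a number.

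The test across genes used edgeR 4.0.16 (R 4.3.3; default expression filter, 11312 genes kept, TMM scaling, quasi-likelihood F test, Benjamini-Hochberg adjustment over all genes, threshold 0.05), after tests on simulated data. The standard error is the log2 fold change over the root of F. In simulated counts the test recovered 0 of 50 genes changed 1.5-fold and 3 of 50 changed 2-fold. It recovered 35 of 50 changed 4-fold and 50 of 50 changed 8-fold. The changes were placed in genes with expected counts above 50, with 1 dispersion for all genes. A member without a call may thus still have changed. All 44 members passed the filter. Alternatives were DESeq2 1.42.0, limma-voom (limma 3.58.1), other scalings and filters, a fold of 1.5, a replicate block and leaving out each library. Members and lists were chosen with earlier results of these data known. All members entered the counts and medians, and the values of 1 are not reported here. Members could be named, and also every tested further assembly factor and regulator. Of other lists the 2 called genes of largest change could be named, if their mean reached 10 CPM. Missing list symbols were sought under RefSeq synonyms. Motifs were reduced to cores of a few letters after longer NRF1 and YY1 motifs had been searched; the longer ones are not reported. Near-copies were found with BLAST 2.17.0.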

Additional observations from a re-analysis of the deposited data

How the results depend on the processing

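Over 571 values of single members under the alternatives, 514 kept their direction and side of the threshold, 38 lost a call, 8 gained one and 11 turned in sign, all of members without a call. With library totals and no factors 1 member, a subunit, was called lower and 1 Ndufaf factor higher, and the log2 fold change was -0.027 for Ndufaf3, -0.21 for Ndufb10, -0.13 for Ndufb11, -0.12 for Ndufb3 and -0.20 for Ndufv3. Against a fold of 1.5, 1 Ndufaf factor was called, and of all genes 1110 were called higher and 785 lower. With single libraries left out, members called higher ranged from 5 to 20, subunits from 4 to 17, Ndufaf factors from 1 to 3 and the Ndufaf median from 0.21 to 0.96, while Ndufaf7 ranged from -0.94 to 0.0049, Ndufb10 from -0.073 to 0.29, Ndufb11 from -0.24 to 0.72, Ndufb3 from -0.21 to 0.51, Ndufv3 from -0.032 to 0.30 and the median of all genes from -0.10 to 0.019. The cause was not tested. The number of all tested genes called higher also moved between these fits. Like that of members, it was lowest without tetramer library 4 and highest without resting library 5. Whether the calls of members moved more than those of all genes was not tested. With the column number as a replicate block, 17 members were called higher, and of all genes 1693 were called higher and 1468 lower. No source says what libraries of the same number share (correlation of deviations 0.049 across genes). The block took the call of Ndufb8 and gave one to Ndufaf6. The stricter filter left out Ndufaf6. Counts of Ndufaf transcripts were as low as 3 in a library.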

Other observations

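Of 12 tested regulators of mitochondrial biogenesis, 1 rose and 0 fell, with a median log2 fold change of 0.27, against 14.3% higher, 12.1% lower and a median of -0.06 over all tested genes. The gene that rose was Myc, from few reads, at 8.39 and 2.23 CPM in tetramer libraries 4 and 5 and 1.04 and 0.641 CPM in resting libraries 4 and 5 (2.62 ± 0.80, edgeR adjusted p = 0.0163). Nrf1, whose motif was sought in the promoters, had 12.7 and 14.4 CPM in tetramer libraries and 16.2 and 14.7 CPM in resting libraries. The call of Myc was lost with limma-voom.

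Of 13 tested genes of iron-sulphur cluster assembly, whose products supply cofactors to complex I, 3 rose (23.1%, against 14.3% of all tested genes) and 0 fell, with a median log2 fold change of 0.03. Hspa9, the mitochondrial chaperone that aids cluster transfer, had 199 and 162 CPM in tetramer libraries and 44.5 and 64.5 CPM in resting libraries (1.73 ± 0.38, edgeR adjusted p = 0.00149). Bola3, a late-acting factor, had 62.4 and 37.0 CPM in tetramer libraries and 8.29 and 21.6 CPM in resting libraries (1.73 ± 0.49, edgeR adjusted p = 0.00985). The call of Bola3 was lost without tetramer library 4 or resting library 4.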
